A study of Rattus norvegicus with 4 samples.

Results

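Kainate receptors are tetrameric glutamate-gated ion channels, and 5 genes encode their subunits in the rat: Grik1 (GluK1), Grik2 (GluK2), Grik3 (GluK3), Grik4 (GluK4) and Grik5 (GluK5). Grid1 encodes GluD1, a subunit of the delta receptors. These 6 genes were taken by symbol from the 30560 features of the count tables, in which all 6 are listed. Their unique molecular identifier (UMI) counts were summed per library and per cell type. Nuclei classed as D1 neurons, named for the D1 dopamine receptor, were further divided by Reln and by Htr4. Reln encodes the extracellular protein reelin, and Htr4 encodes a serotonin receptor.

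The nuclei came from nucleus accumbens of Sprague-Dawley rats of both sexes, 90 to 120 days old. Each rat received an intraperitoneal injection on 7 consecutive days, either of cocaine at 20 mg per kg or of the same volume of saline, and was placed in an open field. Tissue was collected 1 hour after the last injection with a 2 mm punch placed over the core of the accumbens. No transgene or other genetic change is given in the labels. Each of the 4 libraries pooled the punches of 4 rats (saline female, saline male, cocaine female and cocaine male), 16 rats in all, so each treatment is represented by 1 pool of females and 1 pool of males, and the spread between single rats was not measured.

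The libraries held 6213 to 7265 barcodes and 31484217 to 40737786 UMIs each, with a median of 4363 to 5066 UMIs per nucleus. After filtering, 24843 nuclei were kept, and 19104 of them (76.9%) passed exactly 1 of the marker gates and entered the sums. A gate is a set of limits on the counts of marker genes in a nucleus, and the limits were set after the data had been seen. Among its limits, the D1 gate asked for at least 1 UMI over Drd1, Ebf1, Isl1, Sfxn1 and Eya1 together. A D1 nucleus therefore need not hold a UMI of the receptor gene Drd1. The D1 and D2 gates took 3415 and 2871 medium spiny neurons, the projection neurons of the accumbens, and other gates took 633 Casz1-positive spiny nuclei, 794 Chst9/Grm8 spiny-like nuclei, 771 Klhl1/Htr7 GABAergic nuclei, 262 Sst/Npy interneurons, 282 glutamatergic nuclei, 1470 astrocytes, 6688 oligodendrocytes, 1085 oligodendrocyte precursors and 782 microglia. Several genes kept out of the gates were high where the names would place them. Tac1 was at 199 CPM (a gene's UMIs scaled to 1000000 in all) in D1 against 8.64 in D2. Penk was at 459 in D2 against 14.3 in D1, and Mbp at 7726 in oligodendrocytes. Tac1 was higher still, at 275, in Casz1-positive nuclei. The spiny neuron marker Ppp1r1b was at 202 in D1 and 179 in D2. In Chst9/Grm8 nuclei, whose gate asked for no spiny marker, Ppp1r1b was at 36.3, below astrocytes at 84.1. In all, 81 of 26147 distinct barcodes occurred in at least 2 libraries.

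Kainate receptors can modulate both transmitter release and the postsynaptic response. GluK1, GluK2 and GluK3 can form channels on their own, whereas GluK4 and GluK5 reach the surface as functional receptors only with one of those 3 and raise the affinity for glutamate. The transmembrane proteins Neto1 and Neto2 slow the gating of kainate receptors, and the adenosine deaminases encoded by Adar and Adarb1 edit the pore codon of GluK1 and GluK2 transcripts. GluD1 does not open to glutamate in the usual way and acts mainly as a synaptic organiser that binds cerebellins, which in turn bind neurexins on the presynaptic side.

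The upstream sequences of Grik1 and Grik3 are shown because Grik3 divided D2 from D1 nuclei and Grik1 divided the Htr4 from the Reln subset of D1. Each is the 250 bases before the annotated gene start in the RefSeq promoter table (build GRCr8, not the build of the counts), printed 5′ to 3′ on the gene's own strand, with every CG in capitals. CG reads the same on both strands. Grik1 lies on the minus strand at chr11:41056504-41056753, and Grik3 on the plus strand at chr5:143052192-143052441.
Grik1: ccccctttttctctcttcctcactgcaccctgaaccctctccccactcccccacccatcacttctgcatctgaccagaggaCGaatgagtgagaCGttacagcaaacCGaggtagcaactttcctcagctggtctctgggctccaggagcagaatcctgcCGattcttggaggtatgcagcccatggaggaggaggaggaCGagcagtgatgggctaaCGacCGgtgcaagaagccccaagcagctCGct
Grik3: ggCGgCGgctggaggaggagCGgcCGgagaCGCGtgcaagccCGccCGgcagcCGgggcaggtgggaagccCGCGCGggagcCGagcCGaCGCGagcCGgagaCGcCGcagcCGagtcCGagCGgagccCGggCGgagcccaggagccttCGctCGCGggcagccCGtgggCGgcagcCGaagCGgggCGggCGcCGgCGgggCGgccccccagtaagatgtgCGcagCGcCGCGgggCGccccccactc

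The Grik1 window held 8 CG and that of Grik3 held 41, more than 58.4% and 99.0% of the 33469 promoters of the table cut to the same length. The same windows of Grik2, Grik4 and Grik5 held 5, 3 and 10. The table had an entry for 5 of the 6 members and none for Grid1. These counts describe the letters only, and no measurement of methylation or binding was made here.

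Levels below are CPM of a cell type in a library, as mean ± SD over the 4 libraries. Because 3′ UMI counts are not per length, each gene was compared across cell types and never with another gene. Neighbours in an order were counted as apart when the 4 values of the higher type all lay above the 4 values of the lower type. These orders are descriptions, without a test, since cell types of 1 library share its tissue and its free RNA.

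Grik1, one of the channel-forming subunits, was divided into a high and a low set of cell types. It reached 598 ± 62.8 CPM (SD, n = 4) in Klhl1/Htr7 GABAergic nuclei, 479 ± 114 CPM in glutamatergic nuclei, 454 ± 19.1 CPM in oligodendrocyte precursors and 332 ± 100 CPM in Sst/Npy interneurons. None of these 4 was apart from its neighbour. All of them lay above oligodendrocytes at 55.3 ± 3.92 CPM, and that step was the single gap among the 10 neighbouring pairs. Chst9/Grm8 spiny-like nuclei were low, at 41.3 ± 34.2 CPM. The spiny classes were also low, with 40.8 ± 8.77 CPM in D1, 26.0 ± 6.03 CPM in D2 and 14.5 ± 10.0 CPM in Casz1-positive nuclei. Astrocytes (3.85 ± 4.66 CPM) and microglia (2.72 ± 3.14 CPM, from 3 UMIs in all) were at the bottom.

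A large share of the nuclei in the high types had no Grik1 detected. Of 771 Klhl1/Htr7 nuclei, 462 had any Grik1 UMI, 59.9%. Fewer, 334 or 43.3%, had 3 or more Grik1 UMIs, and these 334 held 95.7% of the gate's Grik1 UMIs. In D1 nuclei the carriers were far fewer: 139 of 3415 nuclei, 4.07%, had 3 or more UMIs and held 714 of the 1159 Grik1 UMIs. The low mean of Grik1 in D1 therefore rested mostly on a small set of nuclei. Any UMI of Grik1 was found in 13.8% of D1 nuclei on average, against 0.543% of astrocytes, which also had fewer UMIs per nucleus (a median of 3189 against 7854). With every nucleus thinned to 2000 UMIs, which left 3390 D1 nuclei and 1322 astrocytes, the shares were 6.59% and 0.378%.

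Grik2, the channel-forming subunit found throughout the striatum, was above 700 CPM in every library of every gated type except microglia. It was highest in D1, with 3181, 3535, 3253 and 3298 CPM in the saline female, saline male, cocaine female and cocaine male libraries, and D2 held 2440 ± 88.2 CPM. All 4 D1 values were above all 4 D2 values, and the ratio of D1 to D2 was 1.36, between 1.35 and 1.38 in single libraries. Sst/Npy interneurons, at 3114 ± 224 CPM, were not apart from D1. Oligodendrocytes (1919 ± 174 CPM) and their precursors (1804 ± 69.3 CPM) were not apart from each other, and microglia were lowest at 49.5 ± 29.2 CPM.

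Grik3, the third channel-forming subunit, separated the main spiny classes. In D2 nuclei it was at 223, 230, 197 and 217 CPM in the saline female, saline male, cocaine female and cocaine male libraries. In D1 nuclei the same libraries held 0.942, 3.24, 1.04 and 1.00 CPM, from 45 UMIs in 3415 nuclei. D2 was thus above D1 in 4 of 4 libraries, by a ratio of means of 139 and by 71.1 to 237 in single libraries. On nuclei thinned to 2000 UMIs, 32.9% of D2 nuclei and 0.257% of D1 nuclei had a Grik3 UMI. The D1 level was not apart from that of astrocytes (1.78 CPM), oligodendrocytes (2.08 CPM) and microglia (3.69 CPM), so it was no higher than in these glia. Grik3 itself was not used for gating or clustering.

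The other neurons carried Grik3 at levels like D2: 227 ± 18.0 CPM in Sst/Npy interneurons, 216 ± 87.4 in glutamatergic nuclei, 211 ± 41.9 in Klhl1/Htr7 nuclei and 180 ± 14.3 in Chst9/Grm8 nuclei, with no gap between neighbours. Casz1-positive spiny nuclei were lower, at 76.6 ± 12.4 CPM. Within the oligodendrocyte lineage Grik3 was at 122 ± 9.51 CPM in precursors and 2.08 CPM in oligodendrocytes, a ratio of 58.5 (41.7 to 144 in single libraries, higher in 4 of 4).

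Grik4, which encodes a high-affinity subunit that needs a partner, had a different order from the others, with oligodendrocytes on top. These held 494, 425, 500 and 387 CPM in the saline female, saline male, cocaine female and cocaine male libraries, above all 4 values of the precursors (271 ± 28.0 CPM). The ratio of oligodendrocytes to precursors was 1.67, and that of oligodendrocytes to D1 nuclei was 6.85, between 5.38 and 8.74 in single libraries. Sst/Npy interneurons followed at 217 ± 50.0 CPM. D2 (72.1 ± 6.79 CPM), astrocytes (71.8 ± 17.0 CPM) and D1 (65.9 ± 9.47 CPM) overlapped, and Casz1-positive spiny nuclei were below them at 43.2 ± 8.77 CPM.

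Grik5, the other high-affinity subunit, had its highest means in Casz1-positive nuclei (378 ± 47.4 CPM), D2 (322 ± 17.9 CPM) and D1 (308 ± 31.5 CPM). Glutamatergic nuclei (288 CPM) came next, before the Chst9/Grm8 spiny-like nuclei (273 CPM). No neighbours were apart from the top down to astrocytes at 142 ± 13.1 CPM. Oligodendrocytes were apart below these, at 29.4 ± 4.07 CPM, and their precursors held 176 ± 28.3 CPM, a ratio of 6.01. Grik1, Grik3 and Grik5 were thus all higher in precursors than in oligodendrocytes in 4 of 4 libraries (8.21 times for Grik1), whereas Grik4 was lower in 4 of 4.

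With microglia set aside, Grid1 was the most even of the 6 across cell types. Oligodendrocyte precursors were apart at the top with 1154 ± 31.0 CPM, and from glutamatergic nuclei (741 CPM) to Casz1-positive nuclei (670 CPM) no neighbours were apart, astrocytes included. D1 and D2 held 698 ± 24.1 and 704 ± 17.7 CPM. Sst/Npy interneurons (439 CPM) and oligodendrocytes (389 ± 42.2 CPM) were lower, and microglia were at 23.2 CPM.

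**Figure D1:**
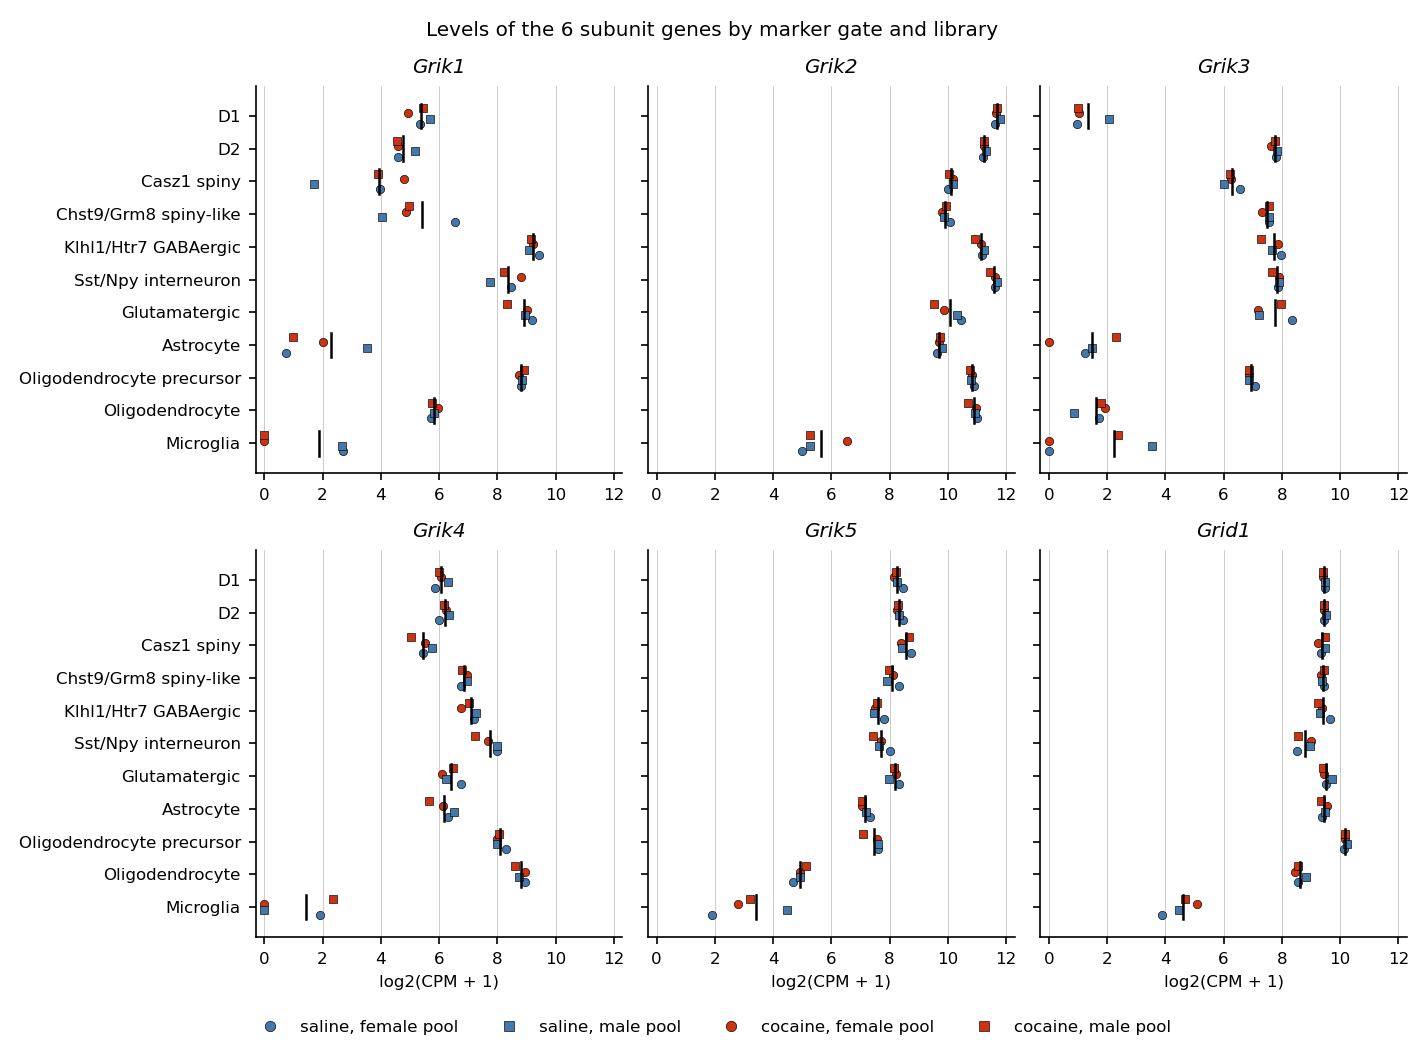
Levels of the 6 genes in each gated cell type. Each point is 1 library on a log2(CPM + 1) axis, with treatment shown by colour and sex by marker shape. The black bar is the mean CPM of the 4 libraries, placed on that axis. Grik3 is near 0 in D1 and above 190 CPM in each D2 library, and Grik4 is highest in oligodendrocytes.

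Partner genes were read for the same cell types. Neto1 was at 999.7 ± 32.2 CPM in D1 and 1150 ± 23.7 CPM in D2, and Neto2 at 331 and 378 CPM. The cerebellins were almost absent from the gated nuclei: Cbln4 reached 35.3 ± 2.09 CPM in Sst/Npy interneurons and at most 3.61 CPM elsewhere, Cbln2 at most 10.4 CPM, and Cbln1 at most 4.66 CPM.

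D1 nuclei were divided by whether they had a UMI of Reln only (1099 nuclei), of Htr4 only (868), of both (259) or of neither (1189). The Reln subset made up 40.3% of D1 nuclei in the saline female library, 26.9% in saline male, 32.6% in cocaine female and 31.9% in cocaine male. The Htr4 subset made up 18.3%, 30.7%, 28.3% and 21.8% of them in the same order. Median depth was close, at 8193 UMIs in the Reln and 8008 in the Htr4 subset.

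Grik1 was the member with the widest split. In the Reln subset it was at 8.84, 10.5, 3.52 and 17.5 CPM in the saline female, saline male, cocaine female and cocaine male libraries, and in the Htr4 subset at 64.9, 70.3, 39.9 and 60.7 CPM. All 4 Htr4 values were above all 4 Reln values. The ratio of means was 5.84 (3.46 to 11.3 in single libraries). This split was known when the genes were chosen, so it is given without a p. Nuclei with neither marker held 62.3 ± 16.4 CPM, close to the Htr4 subset, and nuclei with both held 32.1 ± 19.0 CPM. Grik1 was thus low where Reln was detected alone, and was not restricted to nuclei with Htr4.

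The nuclei that carried the transcript were divided in the same way. Of the 139 D1 nuclei with 3 or more Grik1 UMIs, 58 were in the Htr4 subset, 63 had neither marker, 10 were in the Reln subset and 8 had both. After thinning to 2000 UMIs, 9.41% of Htr4 nuclei and 1.62% of Reln nuclei had a Grik1 UMI, against 18.4% and 5.02% before thinning. The mean Reln share after thinning stood beside 0.378% in astrocytes. Some Htr4 nuclei, 35 of 868, fell in cluster 13, an unnamed cluster of 302 nuclei with high Grik1, and held 65 of the 435 Grik1 UMIs of the subset. Without them the Htr4 subset was at 60.3, 52.2, 37.5 and 56.4 CPM in the saline female, saline male, cocaine female and cocaine male libraries, still above each Reln value.

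For the other members the split was tested with edgeR on the 8 sums, with the library as a block. Between the subsets 1711 of 10647 genes differed at an adjusted p under 0.05 (edgeR), 16.1% of those tested, so a call is common in this contrast. Grik4 was lower in the Reln subset, at 28.1, 53.5, 35.2 and 35.5 CPM against 106, 102, 90.9 and 100.1 CPM in the Htr4 subset (saline female, saline male, cocaine female, cocaine male). The 2 sets of values do not overlap. Its log2 difference, Reln minus Htr4, was -1.34 ± 0.11 (SE; edgeR, adjusted p = 5.18e-11). It passed in each alternative run for this contrast, with values from -1.52 to -1.20. These were DESeq2, no low-count filter, each library left out, no doublet removal and thinning. The contrast was not rerun with a stricter gate, with clusters or with at least 2 UMIs of the subset marker. Grik4 thus went the same way as Grik1, with nuclei of neither marker in between at 67.1 CPM.

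Grid1 was slightly higher in the Reln subset (717 ± 37.8 against 656 ± 45.0 CPM), with a log2 difference of 0.18 ± 0.06 (edgeR, adjusted p = 0.0412). This call was lost with DESeq2 (adjusted p = 0.310), after thinning (edgeR, adjusted p = 0.204), and when the cocaine female (0.331) or saline male (0.318) library was left out. Grik2 held 3304 ± 186 CPM in the Reln and 3227 ± 176 CPM in the Htr4 subset (log2 difference 0.08 ± 0.05; edgeR, adjusted p = 0.290). Grik5 held 312 ± 36.4 and 323 ± 32.0 CPM (edgeR, adjusted p = 0.992). Grik3, with 5 and 12 UMIs in the subsets, was under the count filter.

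**Figure D2:**
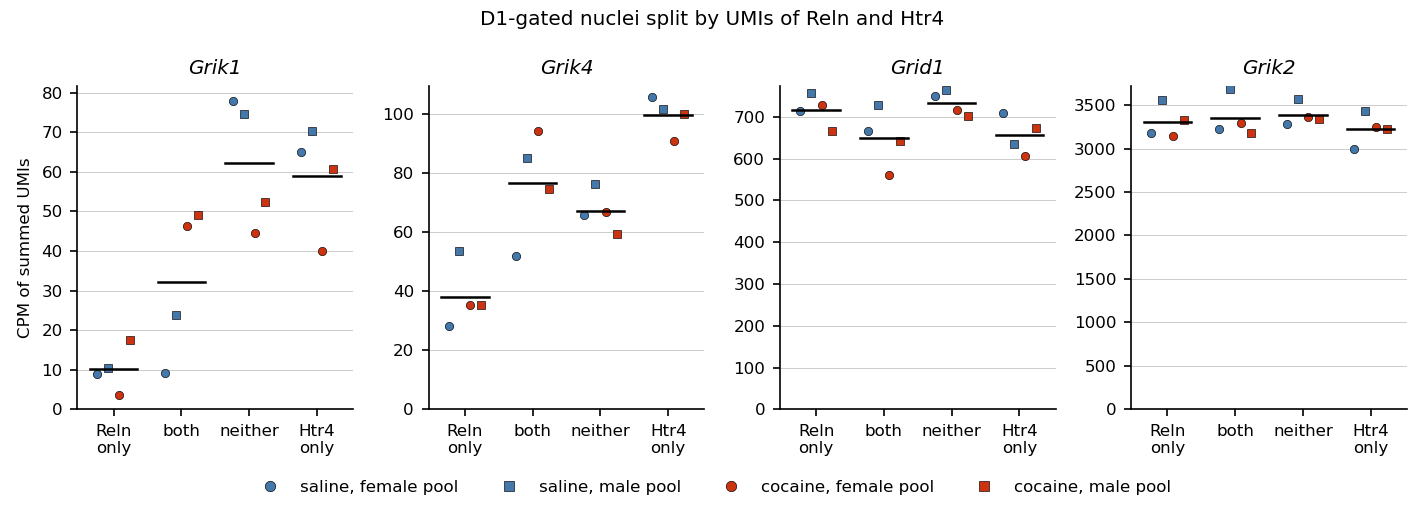
Levels of Grik1, Grik4, Grid1 and Grik2 in D1 nuclei with Reln only, Htr4 only, both or neither, in CPM on a linear axis from 0. Points are the 4 libraries and bars their mean. Grik1 and Grik4 are lowest in the Reln subset, with no library of the Htr4 subset as low, while Grik2 and Grid1 overlap between these subsets.

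Of the lists of partner genes, some moved with the same split. Among 11 tested kainate receptor partners 3 were higher and 1 lower in the Reln subset, with a median log2 difference of 0.05 against 0.01 over all genes. The higher ones were Grip1, which encodes a scaffold protein (1.13; edgeR, adjusted p = 1.01e-15), and the auxiliary subunit genes Neto2 (0.37; edgeR, adjusted p = 8.7e-05) and Neto1 (0.31; edgeR, adjusted p = 4.18e-05). Adarb1, an RNA-editing enzyme gene, was lower (-0.25; edgeR, adjusted p = 0.0115). Of 4 delta receptor partners tested, 2 were higher, among them the presynaptic adhesion gene Nrxn3 (0.28; edgeR, adjusted p = 6.16e-06). Of 7 AMPA and NMDA receptor subunit genes tested, Gria4 (0.98; edgeR, adjusted p = 2.84e-14) and Gria2 (0.23; edgeR, adjusted p = 0.000777) were higher, and Grin3a (-1.54; edgeR, adjusted p = 9.52e-07) and Grin2a (-1.02; edgeR, adjusted p = 4.61e-12) lower. The Reln subset thus held less Grik1 and Grik4 but more of both Neto genes.

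The study asked how repeated cocaine changes transcripts in subclasses of D1 neurons. For the members no change passed the test: in 11 gated cell types, 57 combinations of a member and a cell type could be fitted, and none was called, nor was any in the Reln or Htr4 subset. Of the 57 log2 differences (cocaine minus saline), 50 were negative and 7 positive, whereas between 49.1% and 50.2% of all genes were negative in each cell type. At an unadjusted p under 0.05 (edgeR) there were 14 of 57 (24.6%), against 4.73% to 9.64% of all genes in single cell types. The cell types share the same 4 libraries, so these are not 57 separate observations. Within each sex the direction was less even: of 66 combinations, 24 were lower with cocaine in both the female and the male pair of libraries, 5 were higher in both and 37 went opposite ways.

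In D1 nuclei 14 of 12706 genes were called, 0.11% of those tested. With saline, Grik1 was at 40.2 CPM in females and 51.0 CPM in males, and with cocaine at 29.7 and 42.4 CPM, the order of sexes used from here on. The groups overlapped, and the log2 difference was -0.37 ± 0.11 (SE; edgeR, adjusted p = 0.397). Grik5 was at 353 and 304 CPM with saline and 280.5 and 294 CPM with cocaine, with no overlap, and its log2 difference was -0.21 ± 0.08 (edgeR, adjusted p = 0.515). Without the saline male library, which left 1 saline library and no sex covariate, the Grik5 difference was -0.33. Grid1 also did not overlap, at 719 and 718.5 CPM against 676 and 678 CPM (log2 difference -0.11; edgeR, adjusted p = 0.708). Of all genes with at least 20 UMIs in D1, 13.4% had both cocaine libraries below both saline libraries. Grik2 (-0.06; edgeR, adjusted p = 0.849) and Grik4 (-0.10; edgeR, adjusted p = 0.895) overlapped, and Grik3 was under the filter.

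In D2 nuclei, where 79 of 12241 genes (0.645%) were called, the members had log2 differences from -0.39 to -0.02. Grik1 was at 23.3 and 35.1 CPM with saline and 22.9 and 22.7 CPM with cocaine (-0.39 ± 0.14; edgeR, adjusted p = 0.263). Grik3 was at 223 and 230 against 197 and 217 CPM (-0.18 ± 0.08; edgeR, adjusted p = 0.410). Both cocaine libraries lay below both saline libraries for Grik1, Grik3, Grik5 and Grid1, as they did for 10.7% of all genes. The difference of the cocaine effect between D1 and D2, for which 7 of 12782 genes (0.0548%) were called, was 0.03 ± 0.17 for Grik1 (edgeR, adjusted p = 0.990).

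Dividing D1 did not bring out a change. In the Reln subset, with 108 of 10738 genes called (1.01%), Grik1 differed by -0.02 ± 0.34 (edgeR, adjusted p = 0.996). Grik5 there was the only tested member without overlap (-0.24; edgeR, adjusted p = 0.308), a pattern shown by 15.5% of all genes. In the Htr4 subset 1 of 10568 genes was called (0.00946%), and Grik1 differed by -0.45 ± 0.17 (edgeR, adjusted p = 0.931). Both cocaine libraries of that subset were below both saline ones for Grik1, Grik4 and Grik5, and for Grik3 on 12 UMIs, against 13.6% of all genes. The effect on Grik1 differed between the subsets by 0.50 ± 0.37 (Reln minus Htr4; edgeR, adjusted p = 0.936, with 16 of 11191 genes called, 0.143%).

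No member passed in Klhl1/Htr7 nuclei (0.0662% of all genes called), Sst/Npy interneurons (0.423%), oligodendrocytes (0.101%), oligodendrocyte precursors (0.463%) or microglia (0.411%). Over the 11 cell types and 6 members, 16 of 66 combinations had both cocaine libraries below both saline libraries and 3 had both above. Beside D1 and D2, both cocaine libraries lay below both saline libraries for Grik4 and Grik5 in astrocytes (14.9% of all genes with at least 20 UMIs), Grik2 and Grid1 in glutamatergic nuclei (14.8%), Grik2 and Grik4 in Klhl1/Htr7 nuclei (14.1%), Grik3 in Chst9/Grm8 nuclei (15.2%), Grik4 in Sst/Npy interneurons (15.2%), Grik5 in oligodendrocyte precursors (13.7%) and Grik1 in microglia (15.0%, but on 3 UMIs of Grik1). They did so for no member in Casz1-positive nuclei (16.5%) or oligodendrocytes (10.6%). Both cocaine libraries lay above both saline libraries for Grik2 and Grid1 in microglia (19.6% of all genes) and for Grik3 in oligodendrocytes (21.8%), each on few UMIs.

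Outside D1 and D2, the 6 widest differences of members did not pass in the fits as set here. In Chst9/Grm8 nuclei (0.184% of 9256 genes called) Grik1 was at 91.6 and 15.3 CPM with saline and 28.0 and 30.4 CPM with cocaine (-0.94 ± 0.25; edgeR, adjusted p = 0.0667). The saline libraries stood on either side of both cocaine libraries. In the saline female library 8 of 229 nuclei held 140 of 146 Grik1 UMIs, with 53 in a single nucleus. Without that library the difference was 0.88, and without the saline male library it was -1.66. Each of these fits left 1 saline library and had no sex covariate, so no p is given. With at most 3 UMIs counted per nucleus the difference was 0.24 (edgeR, adjusted p = 0.950), and with clusters 0.65 (edgeR, adjusted p = 0.148). With a stricter gate it was -1.58 ± 0.28, which passed (edgeR, adjusted p = 0.00387). The stricter gate is not a subset of the other here: in the saline male library 3 of its 135 nuclei had passed 2 or more gates before, and they held 16 of its 27 Grik1 UMIs.

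In Casz1-positive spiny nuclei (0.513% of 9551 genes called) Grik1 was at 14.8 and 2.25 CPM with saline and 26.8 and 14.1 CPM with cocaine (1.32 ± 0.40; edgeR, adjusted p = 0.113), from 72 UMIs in all. In the cocaine female library 5 nuclei held 28 of the 38 Grik1 UMIs. With 1 library left out, the difference ran from 0.53 (without saline male) to 3.16 (without saline female). In astrocytes (0.983% of 10076 genes called) Grik4 was at 78.1 and 89.7 CPM with saline and at 70.0 and 49.3 CPM with cocaine (-0.49 ± 0.18; edgeR, adjusted p = 0.275), and a stricter gate gave a difference that passed (-0.89; edgeR, adjusted p = 0.00967). In glutamatergic nuclei Grik2 was at 1398 and 1271 against 941 and 735 CPM (-0.72 ± 0.27; edgeR, adjusted p = 0.903), where the number of nuclei per library ran from 31 to 157. In Sst/Npy interneurons Grik4 was at 256 and 254 against 206 and 150.05 CPM (-0.55 ± 0.21; edgeR, adjusted p = 0.381). In microglia Grik2 was at 30.6 and 37.17 against 93.0 and 37.22 CPM (1.05 ± 0.44; edgeR, adjusted p = 0.461), on 7 to 31 UMIs per library, and without doublet removal the value was -0.074. Among glutamatergic nuclei none of 7329 genes (0%) was called with edgeR, 391 had an unadjusted p under 0.05, and DESeq2 called 4.

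**Figure D3:**
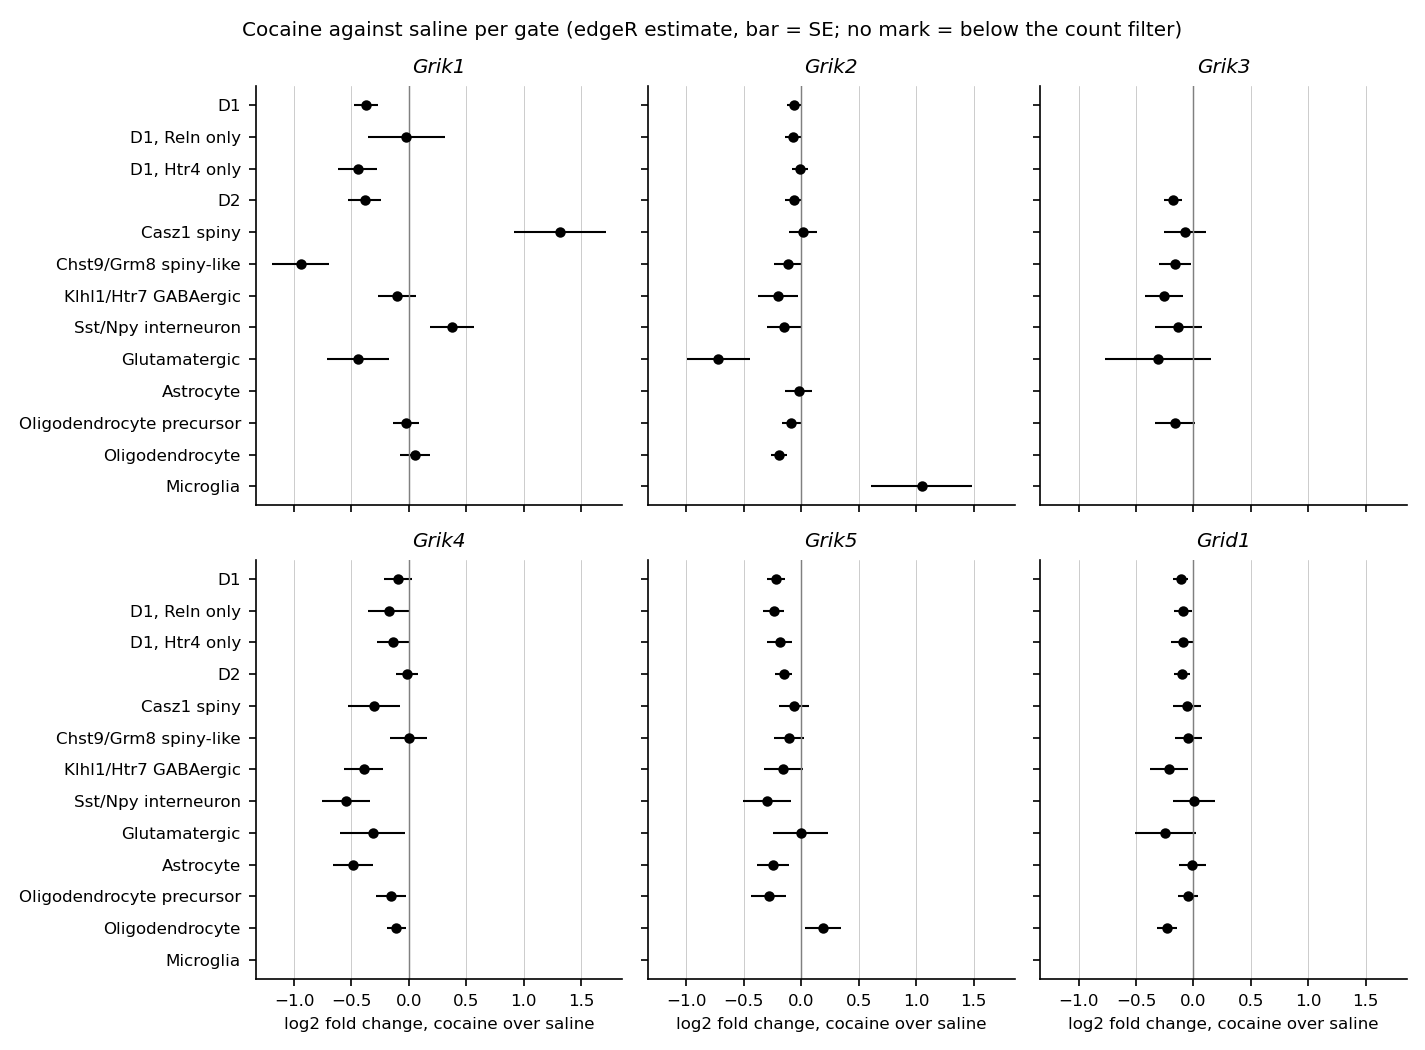
Cocaine minus saline log2 differences of the 6 genes in each gated cell type and D1 subset, from edgeR, with bars of 1 SE. A missing mark means that the gene was under the count filter. Most marks lie left of 0, and the widest bars belong to gates with few nuclei or few UMIs of the gene.

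How the D1 nuclei were chosen moved the Grik1 value. With clusters in place of gates, Grik1 in D1 was at 69.7 and 61.6 CPM with saline and 43.1 and 44.6 CPM with cocaine, and the difference passed (-0.61 ± 0.09; edgeR, adjusted p = 0.0377). The D1 clusters held 103 to 152 nuclei per library with a UMI of 1 of 13 marker genes of other neuron classes, summing to 14.8 to 18.0 CPM, whereas the D1 gate admits no such UMI and has 0. The part of these nuclei in the difference was not tested. A stricter gate moved it the other way, to -0.13 ± 0.13 (edgeR, adjusted p = 0.859). Counting at most 3 UMIs per nucleus gave -0.30 (edgeR, adjusted p = 0.579), and leaving out the nuclei of cluster 13 gave -0.31 (edgeR, adjusted p = 0.454). In the Htr4 subset the cluster-based value also passed (-0.67 ± 0.14; edgeR, adjusted p = 0.0175), and the stricter gate gave -0.18 (edgeR, adjusted p = 0.995).

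Unlike the levels in the D1 gate, the shares of nuclei with 3 or more Grik1 UMIs did not overlap between treatments. In D1, 33 of 605 nuclei of the saline female library and 51 of 944 of saline male had 3 or more Grik1 UMIs, against 27 of 921 of cocaine female and 28 of 945 of cocaine male. These are 5.45% and 5.40% with saline, and 2.93% and 2.96% with cocaine. D1 shares with any Grik1 UMI did overlap, at 13.1% and 18.2% with saline against 10.2% and 13.9% with cocaine. The gap at 3 or more UMIs was not particular to D1. In D2 the shares were 3.65% and 3.52% with saline against 2.14% and 1.85% with cocaine. How many of all genes have such a gap is not given here. Shares at 3 or more UMIs were counted after the values had been seen, and none of these shares was tested. They also depend on depth and were not taken at thinned depth. Library medians ran from 6872 to 10157 UMIs per nucleus in D1 and from 6534 to 9900 in D2. Fewer carrier nuclei and less transcript per nucleus cannot be told apart from the summed counts alone.

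**Figure D4:**
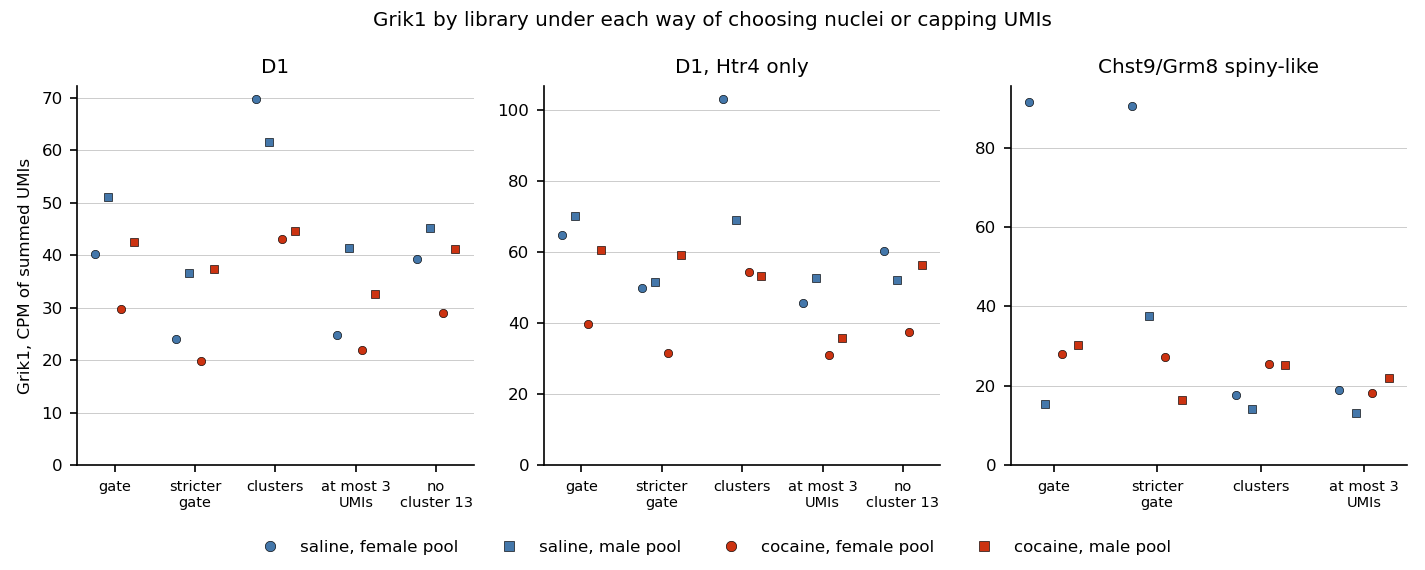
Grik1 level in each library, in CPM, under each way of choosing or counting nuclei, for D1, for D1 nuclei with Htr4 only and for Chst9/Grm8 nuclei. Saline libraries are above cocaine libraries with clusters in D1 but overlap with gates, and the saline female library stands above the others in gated Chst9/Grm8 nuclei but not when counts per nucleus are limited to 3.

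Among the partner lists a few genes were called for cocaine. In oligodendrocytes Gria4, 1 of 7 AMPA and NMDA subunit genes tested, was lower (-0.79; edgeR, adjusted p = 0.00998). In oligodendrocyte precursors Grin2a, 1 of 7 such genes, was higher (1.61; edgeR, adjusted p = 1.53e-05). In microglia Nrxn3, 1 of 3 delta partners tested, was higher (1.09; edgeR, adjusted p = 0.0122). Of all genes tested, 0.101%, 0.463% and 0.411% were called in these cell types, in the same order. These 3 calls were not made by DESeq2 and were lost in other alternatives. For Adarb2, an editing enzyme homologue gene, the cocaine effect in D1 was below that in D2 by 0.44 on the log2 scale (-0.44 ± 0.08; edgeR, adjusted p = 0.0354), a call that DESeq2 did not make either. No kainate or delta partner was called in D1, D2 or either D1 subset, and the median over the 12 kainate partners tested in D1 was -0.07, against -0.11 for the 5 members and 0.00 for all genes.

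The genes whose levels across the 13 groups (11 cell types and the Reln and Htr4 subsets, which share nuclei with D1) were most like a member's were taken by Pearson's r of log2(mean CPM + 1) among 11110 genes. The values are a description, since all points come from the same 4 libraries. For Grik1 they were Tmem132c (r = 0.950), Akap12 (0.927), Kcnh8 (0.914), Slc9b1 (0.905) and Bean1 (0.896). For Grik2 they were Clcn4 (0.958), Armcx2 (0.948) and Abitram (0.946). Grik3 was most like Chrm3 (0.933), which encodes a muscarinic acetylcholine receptor, Unc5d (0.850) and Lurap1l (0.841). Grik4 was most like Ankrd12 (0.960), Ncam1 (0.959) and Tmem117 (0.945). Grik5 was most like Cplx2 (0.991), which encodes a complexin, the AMPA receptor subunit gene Gria2 (0.990) and Fat3 (0.982). Grid1 was most like Plekha6 (0.991), Zfp462 (0.977) and Ric3 (0.975).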

How the data were processed

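The authors deposited UMI counts per gene and nucleus for each of the 4 libraries, made with Cell Ranger 6.1.2 per the file headers, on rn7 per the submitters' processing notes. Whether intronic reads were counted is not given in the sources used here. The libraries were 10x 3′ v3 preparations of sorted nuclei, with 12500 nuclei loaded on average per the labels.

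Barcodes needed 200 or more genes and a mitochondrial share of no more than 5%, which 4 failed, and 1381 likely doublets were removed with Scrublet, 4.97% to 5.81% per library. Gates used part of a list of cell type markers, of which 73 of 77 were listed as symbols. Of the nuclei kept, 5590 passed no gate and 149 passed 2 or more, and both kinds were left out. The Pthlh/Kit gate held 51 nuclei, 10 in the smallest library, under the minimum of 25 per library, and was not fitted. The same nuclei were also grouped into 21 Leiden clusters (scanpy 1.11.5, leidenalg 0.10.2), with the members and partner lists held out, as an alternative to the gates.

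UMIs were summed per library and cell type and fitted with edgeR 4.0.16 (TMM scaling, filterByExpr, quasi-likelihood test, R 4.3.3), with sex as a covariate for treatment and the library as a block within pairs of groups. A treatment fit has 1 residual degree of freedom. Benjamini-Hochberg adjustment ran over all genes tested in a fit, with a threshold of 0.05. The fits were also run on simulated sums, with the same spread set for every gene and no sex effect. Those sums do not copy a transcript held by few nuclei, as Grik1 was, and no result here rests on them. Alternatives were DESeq2 1.42.0, no filter on low counts, no sex covariate, each library left out, no doublet removal, a stricter gate, clusters, and thinning to 2000 UMIs. The members and partner lists were chosen with earlier results of these data known. The named genes were the 6 members, every list gene past the threshold and a few partners whatever they did, except 1 item that is not reported here, and the genes most like each member by correlation, 5 for Grik1 and 3 for each other. Counts from pooled rats measure the spread between pools, and thinned and unthinned shares cover nuclei with a UMI, not nuclei expressing a gene.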

Additional observations from a re-analysis of the deposited data

Results flagged for a closer look

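The cocaine effect on Adarb2, an editing enzyme homologue gene, differed between D1 and D2 by a log2 value of -0.44 (D1 minus D2; edgeR, adjusted p = 0.0354). Its level was 614 ± 89.8 CPM in D1 and 80.1 ± 17.3 CPM in D2 (SD, n = 4). The difference was not called by DESeq2.

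Grik4 moved in opposite directions in the 2 sexes in D1, D2 and the Reln subset. The values are log2 ratios of cocaine to saline with 0.5 added to the UMIs. In D1 the female pair of libraries gave 0.21 and the male pair -0.33. In D2 the values were 0.22 and -0.16, and in the Reln subset, whose nuclei are part of D1, 0.33 and -0.59. Over the 13 groups (11 cell types and the Reln and Htr4 subsets), Grik4 went opposite ways in 9. It was lower in both sexes in 4: Klhl1/Htr7 nuclei, Sst/Npy interneurons, astrocytes and the Htr4 subset. Opposite directions were common among the members, in 37 of 66 combinations with a cell type. The share over all genes is not given here. The difference between the sexes was not tested, since each sex has 1 library per treatment.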

How the results depend on the processing

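The number of genes called depended strongly on the settings. With the settings of the report it was 7 in the D1 and D2 interaction, 16 in the Reln and Htr4 interaction, 1711 in the contrast of the Reln and Htr4 subsets, 99 in astrocytes, 49 in Casz1-positive nuclei, 17 in Chst9/Grm8 nuclei, 14 in D1, 79 in D2, 0 in glutamatergic nuclei, 1 in the Htr4 subset, 7 in Klhl1/Htr7 nuclei, 23 in microglia, 11 in oligodendrocytes, 42 in oligodendrocyte precursors, 108 in the Reln subset and 28 in Sst/Npy interneurons. The interaction is the difference of the cocaine effect between the groups it names. Only counts that moved by more than 1.5 times are given for each alternative. With DESeq2 in place of edgeR it was 0 in the D1 and D2 interaction, 1 in the Reln and Htr4 interaction, 803 in the contrast of the Reln and Htr4 subsets, 1 in astrocytes, 0 in Casz1-positive nuclei, 0 in Chst9/Grm8 nuclei, 1 in D1, 0 in D2, 4 in glutamatergic nuclei, 0 in the Htr4 subset, 0 in Klhl1/Htr7 nuclei, 0 in microglia, 3 in oligodendrocytes, 0 in oligodendrocyte precursors, 7 in the Reln subset and 0 in Sst/Npy interneurons. With nuclei thinned to 2000 UMIs it was 3 in the D1 and D2 interaction, 5 in the Reln and Htr4 interaction, 617 in the contrast of the Reln and Htr4 subsets, 33 in astrocytes, 9 in Casz1-positive nuclei, 0 in Chst9/Grm8 nuclei, 22 in D1, 1 in D2, 1 in glutamatergic nuclei, 1 in Klhl1/Htr7 nuclei, 0 in oligodendrocytes, 1 in oligodendrocyte precursors, 22 in the Reln subset and 6 in Sst/Npy interneurons. Without sex as a covariate it was 1 in astrocytes, 11 in Casz1-positive nuclei, 2 in Chst9/Grm8 nuclei, 0 in D1, 0 in D2, 3 in glutamatergic nuclei, 0 in the Htr4 subset, 2 in Klhl1/Htr7 nuclei, 0 in microglia, 0 in oligodendrocytes, 0 in oligodendrocyte precursors, 20 in the Reln subset and 0 in Sst/Npy interneurons. Without the filter on low counts it was 22 in the D1 and D2 interaction, 105 in D1, 0 in D2, 60 in glutamatergic nuclei, 20 in the Htr4 subset, 28 in Klhl1/Htr7 nuclei and 139 in oligodendrocytes. With a stricter gate it was 64 in astrocytes, 24 in Casz1-positive nuclei, 4 in Chst9/Grm8 nuclei, 0 in D1, 18 in the Htr4 subset, 5 in microglia, 1 in oligodendrocyte precursors and 23 in the Reln subset. With clusters in place of gates it was 80 in Chst9/Grm8 nuclei, 23 in D1, 41 in the Htr4 subset, 2 in Klhl1/Htr7 nuclei, 13 in microglia, 91 in oligodendrocytes and 0 in oligodendrocyte precursors. Without doublet removal it was 17 in astrocytes, 3 in Chst9/Grm8 nuclei, 1 in D2, 16 in the Htr4 subset and 90 in oligodendrocytes. With at least 2 UMIs of Reln or Htr4 asked for it was 24 in the Htr4 subset and 41 in the Reln subset. With the subsets of D1 in equal shares in each library it was 110 in D1. Without the D1 nuclei of cluster 13 it was 26 in D1 and 0 in the Htr4 subset. Leaving out each library in turn, with no sex covariate in those fits and the lone library of a treatment taken to vary like the others, the count ran from 7 to 71 in the D1 and D2 interaction, 17 to 66 in the Reln and Htr4 interaction, 1289 to 1653 in the contrast of the Reln and Htr4 subsets, 26 to 80 in astrocytes, 0 to 23 in Casz1-positive nuclei, 5 to 68 in Chst9/Grm8 nuclei, 2 to 184 in D1, 0 to 125 in D2, 14 to 193 in glutamatergic nuclei, 5 to 83 in Klhl1/Htr7 nuclei, 4 to 30 in microglia, 0 to 79 in oligodendrocytes, 0 to 41 in oligodendrocyte precursors, 13 to 64 in the Reln subset and 15 to 25 in Sst/Npy interneurons. In the Htr4 subset it was 0 in each.

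Of 881 recomputed values of the members' 83 effects, 780 kept their direction and their side of the threshold, 4 no longer passed, 6 newly passed and 91 reversed sign. The 4 that no longer passed are those of Grid1 in the subset contrast, given in the report. Of the 67 treatment effects, 34 kept their sign in all settings run. The reversals of the effects named in the report follow. Without doublet removal, the sign reversed for Grik1 in the D1 and D2 interaction (-0.047), Grid1 in the Reln and Htr4 interaction (-0.00511) and Grik2 in microglia (-0.074). After thinning, the sign reversed for Grid1 in the Reln and Htr4 interaction (-0.056), Grik5 in the Reln and Htr4 interaction (0.11), Grid1 in the Htr4 subset (0.0050) and Grik4 in the Htr4 subset (0.073). With DESeq2, the sign reversed for Grik5 in the contrast of the Reln and Htr4 subsets (0.00105). Without the low-count filter, the sign reversed for Grik5 in the contrast of the Reln and Htr4 subsets (0.00107). With at most 3 Grik1 UMIs per nucleus, the sign reversed for Grik1 in Chst9/Grm8 nuclei (0.24) and Grik1 in the Reln subset (0.10). With clusters, the sign reversed for Grik1 in Chst9/Grm8 nuclei (0.65) and Grik2 in microglia (-0.88). With the stricter gate, the sign reversed for Grik4 in D2 (0.032) and Grik1 in the Reln subset (0.45). With at least 2 UMIs of the subset marker, the sign reversed for Grik2 in the Htr4 subset (0.021). Without the sex covariate, the sign reversed for Grik1 in the Reln subset (0.084). When 1 library was left out, the lowest and highest log2 differences were -0.25 and 0.28 for Grik1 in the D1 and D2 interaction, -0.15 and 0.17 for Grid1 in the Reln and Htr4 interaction, -0.64 and 1.00 for Grik1 in the Reln and Htr4 interaction, -0.47 and 0.49 for Grik4 in the Reln and Htr4 interaction, -0.013 and 0.015 for Grik5 in the contrast of the Reln and Htr4 subsets, -1.66 and 0.88 for Grik1 in Chst9/Grm8 nuclei, -0.13 and 0.00766 for Grik2 in D1, -0.32 and 0.15 for Grik4 in D1, -0.18 and 0.15 for Grik4 in D2, -0.11 and 0.093 for Grik2 in the Htr4 subset, -1.43 and 0.83 for Grik1 in the Reln subset, -0.14 and 0.0059 for Grik2 in the Reln subset and -0.61 and 0.31 for Grik4 in the Reln subset, each with a change of sign. Of 468 recomputed levels, 445 moved by less than 1 SD. Grik1 in Klhl1/Htr7 nuclei and Grid1 in oligodendrocyte precursors moved to 472 and 1262 CPM with clusters, and Grik3 in Sst/Npy interneurons to 259 CPM with the stricter gate.

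In both treatment groups replicate 1 is the female pool and replicate 2 the male pool, so pairing by replicate is pairing by sex, which entered as the covariate. Alternatives that left fewer than 25 nuclei in a library were not run: thinned microglia (8), Klhl1/Htr7 (23) and glutamatergic nuclei (15) under the stricter gate, and clusters for Casz1-positive nuclei. The contrast of the Reln and Htr4 subsets and both interactions were not rerun with the stricter gate or with clusters. Nor were they rerun with the rule of 2 UMIs or without cluster 13. The limit of 3 UMIs per nucleus and the removal of cluster 13 were chosen after seeing the data. The cause of these moves was not tested. Counting error is largest where few UMIs of a member were counted, as for Grik3 in D1 and Grik1 in astrocytes and microglia.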

Other observations

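Several clusters were left unnamed because too few of their nuclei passed a gate (93 of 302 in cluster 13 and 18 of 82 in cluster 18). Cluster 13, with 302 nuclei, held Grik1 at 779 ± 64.1 CPM (SD, n = 4), beside Htr4 at 1492 ± 187 CPM and Isl1 at 258 ± 57.4 CPM, with Drd1 at 47.3 CPM. Cluster 18, with 82 nuclei, in which the cholinergic marker Chat was at 527 CPM, held Grik1 at 317 ± 120 CPM. Cluster 12, with 368 nuclei, had Drd2 at 948 CPM, Htr4 at 570 CPM and Casz1 at 235 CPM, and held Grik3 at 273 ± 3.47 CPM and Grik1 at 6.62 ± 2.45 CPM. High Htr4 thus stood beside high Grik1 in cluster 13 and beside low Grik1 in cluster 12.

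Cluster 10, with 510 nuclei and Kit at 246 CPM, varied most in Grik1: 127 CPM in saline female, 229 in saline male, 727 in cocaine female and 486 in cocaine male. Reln in the same nuclei was at 5.76, 0, 303 and 69.4 CPM, in the same order of libraries. Both genes were thus highest in the cocaine female library. The nuclei were grouped with Grik1 held out, and the difference was not tested.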
